A study of Rattus norvegicus with 6 samples.

Results

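The reelin pathway was followed in sensory neurons from L1-L2 dorsal root ganglia (DRGs) of SHRs, the spontaneously hypertensive strain of rat, through 5 of the 25689 genes in the count table. These were the ligand gene Reln, the receptor genes Lrp8 and Vldlr, the adaptor gene Dab1 and Pafah1b1, whose product Lis1 works further downstream. The set was chosen because Reln was lower after PRATA, the surgical removal of fat around the kidneys (perirenal adipose tissue ablation), so the levels of Reln are given below as a description without a test. The other 4 genes were included for their role in the pathway, though earlier results of these data were known when the set was chosen. Samples were taken from 3 rats 4 weeks after PRATA and from 3 rats after a sham operation, all wild-type SHRs labelled as 6 to 8 weeks old. The paper gives an older age at purchase. The ganglia were digested with enzymes and plated for 5 h, during which glia stuck to the dish and neurons could be flushed off, so all levels are those of dissociated cells. The study made this comparison to learn how PRATA changes sensory neurons that project to the fat around the kidney. All 5 genes passed the filter on low counts, which 14919 genes passed in all.

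Reelin is a large secreted glycoprotein that binds 2 receptors of the lipoprotein receptor family, the very-low-density lipoprotein receptor (Vldlr) and apolipoprotein E receptor 2 (Lrp8). Clustering of the receptors leads kinases of the Src family to phosphorylate the adaptor Dab1 on their cytoplasmic tails, and Lis1 links the pathway to the microtubule motor dynein. The pathway is best known for placing migrating neurons in the developing brain and for its action on synapses and dendrites in the adult. Outside the brain, reelin is also made by other cells, such as lymphatic endothelial cells.

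Promoters from RefSeq (build GRCr8, plus strand) were matched by symbol for 3 members, namely Reln, Vldlr and Dab1. Those of the ligand and of one receptor are shown because both genes had their highest level in the same library, sham replicate 3. The 250 bases before the start are chr4:13628318-13628567 for Reln and chr1:234240436-234240685 for Vldlr. Capitals mark GC boxes, the letters GGGCGG or, on the other strand, CCGCCC.
Reln: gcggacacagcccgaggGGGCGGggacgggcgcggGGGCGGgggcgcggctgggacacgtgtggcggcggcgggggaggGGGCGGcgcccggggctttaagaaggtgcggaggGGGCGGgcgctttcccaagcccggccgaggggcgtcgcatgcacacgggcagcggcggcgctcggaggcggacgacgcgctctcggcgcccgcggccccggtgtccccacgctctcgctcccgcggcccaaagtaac
Vldlr: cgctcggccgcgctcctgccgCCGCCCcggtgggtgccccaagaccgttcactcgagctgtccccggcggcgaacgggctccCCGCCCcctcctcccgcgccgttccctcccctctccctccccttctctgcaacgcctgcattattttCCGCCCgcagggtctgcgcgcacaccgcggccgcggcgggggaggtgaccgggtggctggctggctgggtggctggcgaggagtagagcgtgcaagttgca
The Reln promoter was 80.0% G and C with 4 GC boxes, and that of Vldlr was 73.6% G and C with 3. The Dab1 entries, not shown, held fewer, with 1 GC box at 61.2% and 2 at 75.2% G and C. Of 33469 promoters of this length, 30.5% held at least 1 GC box, 14.8% at least 2, 7.41% at least 3 and 3.67% at least 4. The median share of G and C was 51.2%. These letters describe the windows and are not evidence of a bound factor.

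Depth ran from 5892967 counts (sham replicate 2) to 15226952 (sham replicate 1). Levels are given as CPM, read counts divided by the library size after scaling by edgeR's TMM method, and they compare samples within a gene, not genes with each other, since gene lengths were not used. A floor of 3 counts corresponds to between 0.197 and 0.509 CPM, far below all 5 genes, and covers counting error only. PRATA replicate 3 and sham replicate 1 stood apart in the 7SL RNA genes, with 98.9% and 99.5% of the reads of a pair of copies on Rn7sl1 against 47.3% to 49.3% in the other 4 samples. Each member is therefore also given within those 4 samples, 2 per group. The quasi-likelihood test of edgeR, adjusted by Benjamini-Hochberg over all 14919 genes, called 0 genes (0%) at an adjusted p under 0.05, with 2734 at an unadjusted p under 0.05, while DESeq2 called 728 at the adjusted threshold and limma voom with sample quality weights called 1173.

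Reln (ENSRNOG00000021441), the ligand gene, was lower in every PRATA sample than in any sham sample. In replicates 1, 2 and 3 its level was 128, 248 and 224 CPM after PRATA, against 677, 330 and 832 CPM in the sham group. The sham samples were spread most, since sham replicates 1 and 3 lay far above sham replicate 2, which was nearest to the PRATA samples. The mean was 199.8 ± 63.8 CPM in PRATA samples and 613 ± 257 CPM in sham samples (SD, n = 3 each). The log2 fold change was -1.62 (standard error 0.39), a level 3.07-fold higher after the sham operation. Among all genes tested, 11.2% were lower after PRATA with groups that did not overlap, and 3.23% were lower at an unadjusted p under 0.05 with a log2 fold change under -1. These shares are given for reference only, since Reln was chosen from this comparison. Within the 4 samples that shared the 7SL copy pattern, the log2 fold change of Reln was -1.64 (standard error 0.50). With one sample left out at a time it ran from -1.91 without sham replicate 2 to -1.33 without sham replicate 3.

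**Figure D1:**
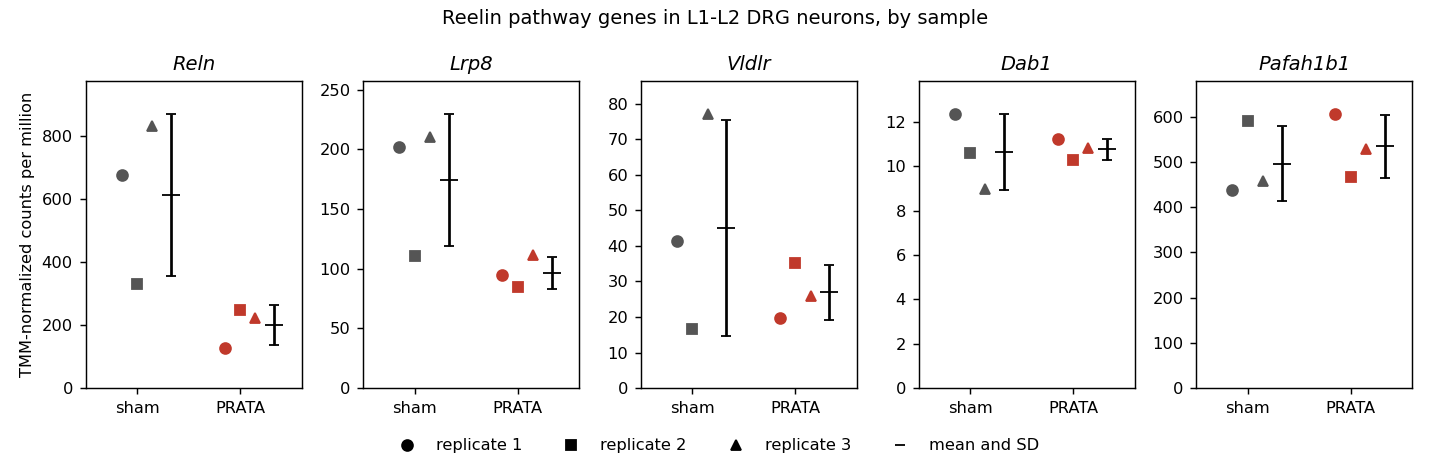
Level of each reelin pathway gene in TMM-normalized CPM (vertical axes, each starting at 0) in the 3 sham and 3 PRATA samples, with marker shapes for replicate numbers and bars for the mean and SD. Reln is lower in all 3 PRATA samples, Lrp8 and Vldlr have high values in sham replicates 1 and 3, and Dab1 and Pafah1b1 overlap between the groups.

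Lrp8 (ENSRNOG00000013064), the gene of apolipoprotein E receptor 2, had a lower mean after PRATA without passing the test. In replicates 1, 2 and 3 its level was 94.5, 84.6 and 111.2 CPM after PRATA, against 202, 110.7 and 210.4 CPM in the sham group. The groups overlapped by a narrow margin, because sham replicate 2 lay just under PRATA replicate 3. The log2 fold change was -0.85 (standard error 0.26, 95% confidence interval -1.45 to -0.25), with an adjusted p of 0.183 from edgeR. It was the only one of the 4 tested members at an unadjusted p under 0.05, a threshold that 10.1% of all genes tested passed in the lower direction. Leaving out sham replicate 2 took the genes at an adjusted p under 0.05 from 0 to 721 in edgeR. Without that sample the Lrp8 log2 fold change was -1.09 (edgeR adjusted p = 0.0303). Without sham replicate 3 it was -0.69 (edgeR adjusted p = 0.533). The call also came with DESeq2 (adjusted p = 0.0411) and with limma voom with sample quality weights (adjusted p = 0.0397), and over its 18 alternatives the adjusted p lay between 0.0303 and 0.551. Within the 4 samples sharing the 7SL copy pattern, the Lrp8 log2 fold change was -0.86 (edgeR adjusted p = 0.339).

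Vldlr (ENSRNOG00000027491), the gene of the second receptor, varied more between sham samples than between the groups. In replicates 1, 2 and 3 its level was 19.7, 35.1 and 25.9 CPM after PRATA, against 41.3, 16.7 and 77.1 CPM in the sham group. Sham replicate 2 had the lowest Vldlr level of all 6 samples and sham replicate 3 the highest. The log2 fold change of -0.74 (standard error 0.48, 95% confidence interval -1.85 to 0.37, adjusted p = 0.438, edgeR) was not larger than this spread. It rested mostly on sham replicate 3, without which it was -0.11 (edgeR adjusted p = 0.941), whereas without sham replicate 2 it was -1.13 (edgeR adjusted p = 0.0849). Within the 4 samples sharing the 7SL copy pattern it was -0.80 (edgeR adjusted p = 0.632).

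Dab1 (ENSRNOG00000007410), the adaptor gene, was nearly level across the samples. In replicates 1, 2 and 3 its level was 11.2, 10.3 and 10.8 CPM after PRATA, against 12.4, 10.6 and 8.97 CPM in the sham group. All PRATA samples lay within the sham range. The log2 fold change was 0.01 with a standard error of 0.22 (edgeR adjusted p = 0.979). Its 95% confidence interval was -0.48 to 0.51, so changes within that range in either direction were not excluded. These levels came from 68 to 179 reads per sample, the fewest of the 5 genes.

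Pafah1b1 (ENSRNOG00000002755), which encodes Lis1, also overlapped between the groups. In replicates 1, 2 and 3 its level was 606, 467 and 529 CPM after PRATA, against 438, 591 and 459 CPM in the sham group. PRATA replicate 1 and sham replicate 2 were highest, and sham replicates 1 and 3, the high samples of the receptors, were lowest. The log2 fold change was 0.11 (standard error 0.21, 95% confidence interval -0.38 to 0.60, adjusted p = 0.826, edgeR). Within the 4 samples sharing the 7SL copy pattern, the log2 fold change was 0.03 for Pafah1b1 and 0.13 for Dab1.

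**Figure D2:**
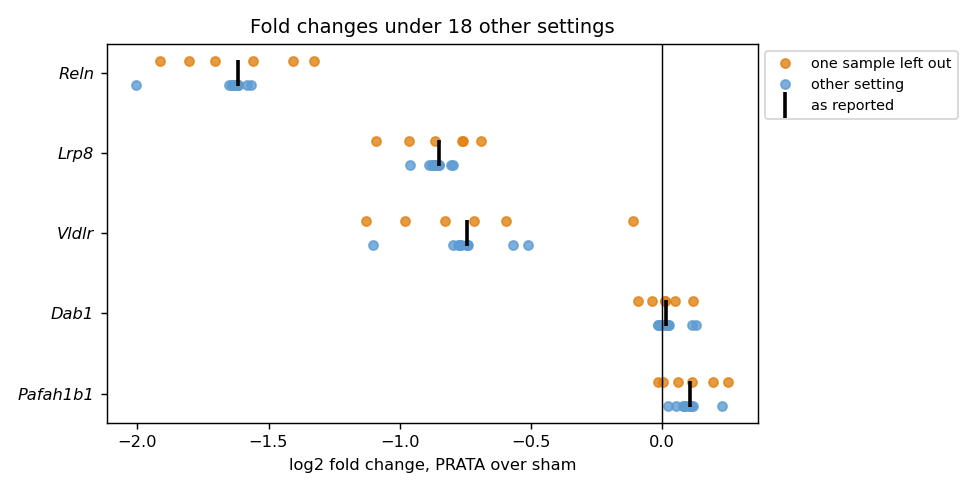
Log2 fold change of PRATA over sham (horizontal axis) for each member as reported (black bars) and under 18 other settings (points), 6 of which leave out one sample. Reln and Lrp8 stay below 0 throughout, Vldlr comes to -0.11 without sham replicate 3, and Dab1 and Pafah1b1 lie around 0.

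Ratios of read counts within a sample do not depend on the scaling of the libraries, and they were used to compare the balance of ligand and receptors between samples. The ratio of Lrp8 to Vldlr reads in replicates 1, 2 and 3 was 4.77, 2.41 and 4.28 after PRATA, against 4.89, 6.60 and 2.73 in the sham group. The groups overlapped, and the mean log2 ratio differed by -0.28 (exact permutation test, two-sided, p = 0.50, where 3 samples against 3 cannot give a p under 0.10). The balance of the receptors thus differed by less than the spread between samples. Reads on Reln per read on Lrp8 numbered 1.35, 2.94 and 2.01 after PRATA and 3.35, 2.98 and 3.95 after the sham operation in the same replicate order. Per read on Vldlr they numbered 6.44, 7.06 and 8.61 after PRATA and 16.4, 19.7 and 10.8 after the sham operation. Reln was lower after PRATA relative to each receptor with groups that did not overlap, though PRATA replicate 2 and sham replicate 2 nearly met in the ratio to Lrp8. No test was made of these ratios, which hold Reln.

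**Figure D3:**
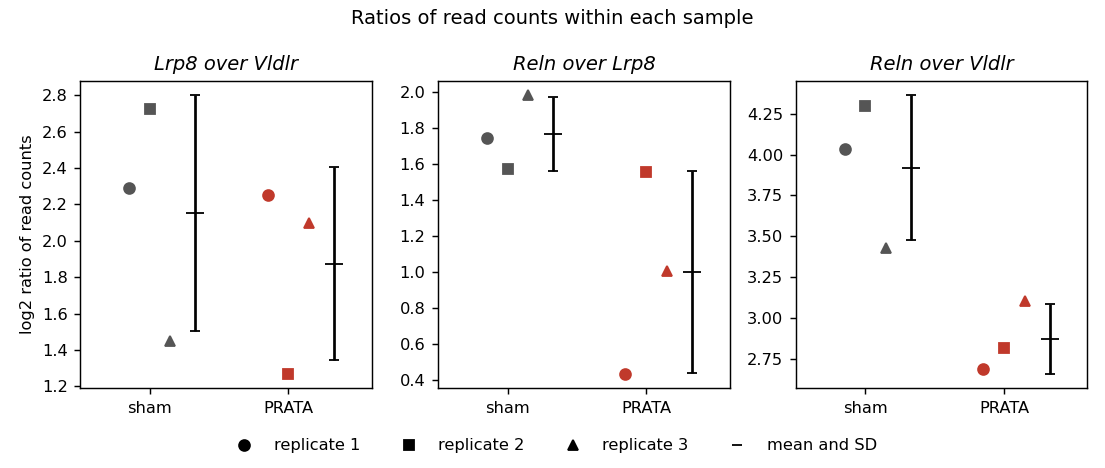
Log2 ratios of read counts (vertical axes, not starting at 0) of Lrp8 over Vldlr, Reln over Lrp8 and Reln over Vldlr in each sample, with bars for the mean and SD. The groups overlap for the receptors, and Reln is lower relative to each receptor in all 3 PRATA samples.

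The wider pathway was described with 4 lists by role, which held 75 further genes, 72 of them in the table and 71 tested. At an adjusted p under 0.05, 0 of the 71 passed edgeR's test. At an unadjusted p under 0.05, 7 (9.86%) were higher and 5 (7.04%) lower after PRATA, beside 8.19% and 10.1% of all genes tested, and the median log2 fold change was 0.05 beside 0.02 over all genes. Of the 71, 0 had a log2 fold change over 1 or under -1 at that p, beside 1.17% and 3.23% of all genes. Without overlap between the groups, 12 (16.9%) were higher and 8 (11.3%) lower, beside 11.6% and 11.2% of all genes tested. The 71 genes were therefore near the background in both directions by p. By groups that did not overlap, they were near it in the lower direction and above it in the higher. The values of the list members named below are therefore given as differences, from edgeR unless another tool is named. With voom and quality weights, Spon1 (adjusted p = 0.0450) and Mapk8ip1 (adjusted p = 0.0413) passed the adjusted threshold.

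Of the 14 tested genes for other ligands and for enzymes and proteins that act on ligands and receptors, 4 were higher and 1 lower at an unadjusted p under 0.05. These were 28.6% and 7.14% of the list, beside 8.19% and 10.1% of all genes tested. Spon1, which encodes F-spondin, a secreted protein that binds Lrp8, was at 48.8, 45.1 and 56.7 CPM after PRATA and 32.6, 37.6 and 30.5 CPM after the sham operation, with groups that did not overlap. On the log2 scale it differed by 0.58 with a standard error of 0.18 (edgeR adjusted p = 0.179). Lrpap1, the chaperone of the receptor family, differed by 0.39 and the convertase gene Pcsk6 by 0.56 on the log2 scale, both without overlap between the groups. In this list 5 of 14 genes (35.7%) were higher and 0 lower without overlap, beside 11.6% and 11.2% of all genes tested. Thbs1, the thrombospondin 1 gene, was at 883, 285 and 672 CPM in sham replicates 1, 2 and 3 and between 271 and 351 CPM after PRATA, a difference of -0.95 on the log2 scale with a standard error of 0.38 (edgeR adjusted p = 0.245). As with the receptors, sham replicate 2 lay with the PRATA samples, and without it Thbs1 stood at -1.29 (edgeR adjusted p = 0.0340). In that fit 721 genes passed the adjusted threshold, against 0 with all 6 samples. The Reln-cleaving proteases showed no common direction, with log2 fold changes of -0.07 for Adamts2, -0.10 for Adamts3, 0.64 for Adamts4, 0.12 for Adamts5 and -0.78 for Plat.

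Of the 13 tested receptors of the same family and proteins that handle them, 1 was higher and 0 lower at an unadjusted p under 0.05. The 1 higher gene (7.69% of the list, beside 8.19% of all genes tested) was Nrp1, which encodes neuropilin 1. Nrp1 differed by 0.48 on the log2 scale with a standard error of 0.21 (edgeR adjusted p = 0.267). The related receptor genes Lrp1 and Lrp4 differed by -0.43 and -0.47 on the log2 scale with overlapping groups. Itgb1, the integrin beta 1 gene, was lower in every PRATA sample (358 to 407 CPM) than in any sham sample (416 to 620 CPM), with a log2 fold change of -0.45 (adjusted p = 0.303, edgeR). Itgb1 was the 1 gene of this list (7.69%) lower without overlap, beside 11.2% of all genes tested.

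Of the 29 tested genes for kinases, adaptors and turnover around Dab1, 2 were higher and 4 lower at an unadjusted p under 0.05. These were 6.90% and 13.8% of the list, beside 8.19% and 10.1% of all genes tested. Mapk8ip1 and Mapk8ip2, scaffolds of the JNK kinases that bind the Lrp8 tail, had higher means after PRATA with log2 fold changes of 0.57 each (adjusted p = 0.194 and 0.245, edgeR). Cul5 and Socs6, which belong to ubiquitin ligases and of which Cul5 takes part in the breakdown of active Dab1, differed by -0.53 and -0.55. Yes1, a kinase of the Src family, differed by -0.67, while its relatives Fyn and Src, at -0.46 and -0.34, did not reach the unadjusted threshold. Rap1a, a small GTPase downstream of Dab1, was at 22.2 to 27.0 CPM after PRATA and 27.8 to 38.3 CPM after the sham operation. For Cul5, Socs6, Yes1 and Rap1a the highest PRATA sample was under the lowest sham sample, with margins as narrow as 27.0 against 27.8 CPM for Rap1a. In the whole list 6 of 29 genes were lower and 4 of 29 higher without overlap, beside 11.2% and 11.6% of all genes tested.

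Of the 15 tested genes that work with Lis1 and dynein, 0 had an unadjusted p under 0.05, 10 had higher and 5 lower means after PRATA, and the median log2 fold change was 0.20. Dctn1, the largest dynactin subunit, and Dync1h1, the dynein heavy chain, were at 0.52 and 0.32, both without overlap between the groups. In this list 3 of 15 genes were higher and 1 of 15 lower without overlap, beside 11.6% and 11.2% of all genes tested. Dync1i1, Dynll1 and Dync1li2, other dynein chains, were at 0.54, 0.29 and 0.25, and Nde1, a partner of Lis1, at -0.50. The catalytic partners of Lis1 in the PAF acetylhydrolase, Pafah1b2 and Pafah1b3, were at 0.05 and 0.44.

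The samples were set beside markers of the cell types a ganglion holds, since the labels give whole DRG as the tissue and the study isolated neurons. All 24 sensory neuron markers were detected in every sample, and 23 of them had a higher mean after PRATA, with a median log2 fold change of 0.51. All 9 satellite glia markers were detected too and had lower means after PRATA, with a median of -0.58 and summed levels of 3352 to 6376 CPM after PRATA and 4504 to 8756 CPM after the sham operation. All 10 myelinating Schwann cell markers had higher means after PRATA, with a median of 0.75 and summed levels of 875 to 1531 CPM against 671 to 879 CPM. Of 11 fibroblast markers, 9 had lower means, with a median of -0.52 and summed levels of 508 to 2578 CPM against 1436 to 2579 CPM. Of 6 lymphatic endothelial markers, 5 had lower means, with a median of -0.94 and summed levels of 162 to 250 CPM against 300.1 to 643 CPM. Nearly all of that sum was Pdpn, which other cells also express, while the defining marker Prox1 was at 1.27 to 5.93 CPM and Lyve1 at 1.94 to 5.18 CPM over all 6 samples. Blood endothelial, mural cell and macrophage markers had medians of 0.34, 0.22 and 0.68 with overlapping sums, and no marker of any list was at 0 in all samples. In bulk samples, fewer cells of a type and less RNA per cell cannot be told apart.

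Satellite glia markers had lower means after PRATA, as Reln, Lrp8 and most fibroblast and lymphatic endothelial markers did, while most neuron markers went the opposite way. The glia markers ran from -1.63 for Sox10 to -0.02 for S100b on the log2 scale. At an unadjusted p under 0.05 in edgeR, 1 of the 9 (11.1%) was lower, beside 10.1% of all genes tested. Of the 24 neuron markers, 7 (29.2%) were higher and 1 lower at that p, beside 8.19% and 10.1%. Sham replicates 1 and 3, the high libraries of Reln, Lrp8 and Vldlr, had the highest mean log2 CPM of the satellite glia markers (7.71 and 7.55) and the lowest of the neuron markers (7.83 and 8.04). Sham replicate 2, at 6.80 for glia and 8.32 for neurons, lay within the PRATA range of 6.28 to 7.39 for glia and 8.30 to 8.68 for neurons. The mean log2 CPM of Reln differed by -1.57 between the groups, and by -2.05 after each sample's mean of the neuron markers was subtracted. After that of the satellite glia markers was subtracted, it differed by -0.98, with PRATA replicate 3 (1.53) just under sham replicate 2 (1.57). The values of Reln are a description only, since Reln was chosen for its lower level after PRATA. Lrp8 differed by -0.80 as measured, by -1.28 relative to the neuron markers and by -0.21 relative to the glia markers, where the groups overlapped. The same differences relative to neuron and glia markers were -0.995 and 0.07 for Vldlr, -0.45 and 0.62 for Dab1, and -0.36 and 0.70 for Pafah1b1. These subtractions are descriptions, and the satellite glia reference was chosen after the data were seen. The part of cell make-up in the levels of Reln and Lrp8 was not tested.

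**Figure D4:**
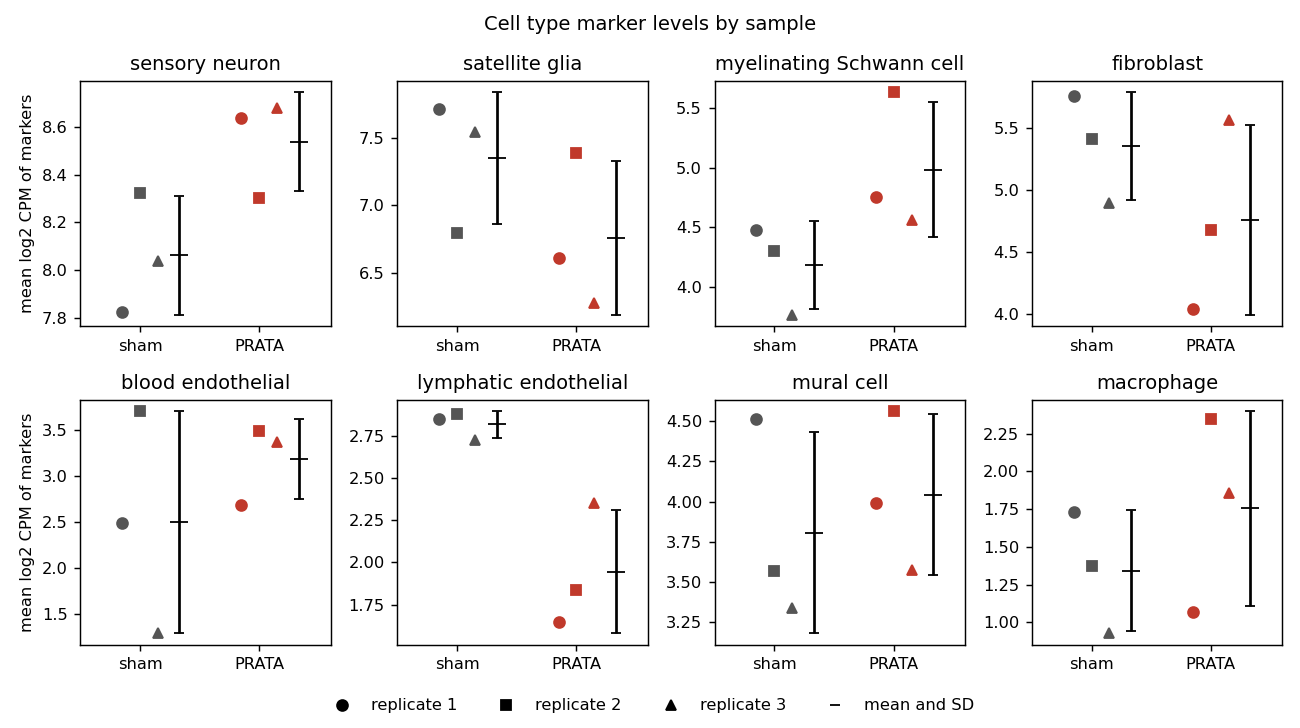
Mean log2 CPM of the markers of 8 cell types (vertical axes, not starting at 0) in the 3 sham and 3 PRATA samples, with bars for the mean and SD. Sham replicates 1 and 3 are highest for satellite glia and lowest for neurons, and sham replicate 2 lies with the PRATA samples in both.

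The pattern of Reln over the 6 samples was compared with that of 12795 other protein-coding genes with a symbol by Pearson's r of log2 CPM, as a description over points that share libraries and depth. Lrp8 had an r of 0.91 and Vldlr of 0.77, while Dab1 was at -0.26 and Pafah1b1 at -0.74. Such likeness was common, since 6.24% of genes had an r over 0.9 and 5.73% an r under -0.9, and Lrp8 ranked 751 from the top. The genes most like Reln were Hnrnpul1 (r = 0.999), Nhlrc2 (0.996), Snx24 (0.995), Snrnp200 (0.994) and Max (0.993). All 5 moved over a narrower range than Reln, with log2 fold changes from -0.82 for Nhlrc2 to -0.25 for Snrnp200. Hnrnpul1, an RNA-binding protein gene, was at 73.8, 87.4 and 84.1 CPM after PRATA (replicates 1, 2 and 3) against 116.4, 96.0 and 123.7 CPM in the sham group, which is the same order of samples as for Reln. The genes most opposite to Reln were Srgap3 (r = -0.998), Drc1 (-0.997) and Dnaja4 (-0.997).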

How the data were processed

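The authors treated the RNA with DNase I and sequenced stranded, ribosomal RNA-depleted libraries in paired-end mode. The deposited values are raw counts of reads per gene, 1 column per sample, made by the authors without normalization. The submitters' processing notes name STAR 2.7.3a, RSEM and DESeq2, and the paper names HISAT2, StringTie and Cuffdiff. Which tool counted the reads, its strand setting, the genome build and the annotation are not given in the sources used here.

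Counts were filtered with edgeR 4.0.16 (filterByExpr, minimum count 10, minimum total 15), scaled by TMM and compared in R 4.3.3 by a two-sided quasi-likelihood test with group as the one term. Adjusted p-values (Benjamini-Hochberg) cover every gene tested. The standard error is the log2 fold change divided by the root of the F statistic. Log2 CPM used a prior count of 2, and count ratios had 0.5 added to each count. The exact permutation test used SciPy 1.17.1. DESeq2 1.42.0, limma 3.58.1 (trend with a pseudocount of 1, and voom), other scalings and filters, each sample left out, the 7SL copy group and the replicate block were alternatives. The fits were tested on simulated data. Figures were drawn with matplotlib 3.10.9.

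Samples were grouped by their titles, and replicate pairs differed by more than sampling noise. The members and lists were chosen with earlier results of these data known. Named genes were the members, up to 6 genes per list with the smallest p, the 5 genes most like Reln and the 3 most opposite. The Adamts genes, Plat, Fyn, Src, Pafah1b2 and Pafah1b3 were named for their role. Some genes that this rule names are not reported here.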

Additional observations from a re-analysis of the deposited data

How the results depend on the processing

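Reln stayed between -2.004 and -1.33 and Lrp8 between -1.09 and -0.69 on the log2 scale over 18 alternatives each, and Vldlr between -1.13 and -0.11. Lrp8 passed the adjusted threshold with DESeq2 (log2 fold change -0.88) and voom with quality weights (-0.96). Dab1, near 0, changed sign with DESeq2's size factors (-0.0058), library size alone (-0.0149), DESeq2 (-0.00845) and protein-coding genes alone (-0.0144). With one sample left out, Dab1 ran from -0.0896 (without sham replicate 3) to 0.12, Pafah1b1 from -0.0138 (without PRATA replicate 1) to 0.25, Lrp8 from -1.09 to -0.69 and the log2 ratio of Lrp8 to Vldlr from -0.63 to 0.0228 (without PRATA replicate 2). The named list genes chosen by their p kept their direction under all 18 alternatives, which were not run for the genes named for their role. Genes at an adjusted p under 0.05 numbered 0 in edgeR but 728 with DESeq2, 1173 with voom and 13 in the 4 samples of the larger 7SL copy group. With one sample left out they numbered 721 without sham replicate 2 and 0 in each other case. Genes at an unadjusted p under 0.05 numbered 2734, but 4606 with voom and 1406 to 4254 with one sample left out. Genes past that p with a log2 fold change over 1 numbered 175, but 84 with limma-trend, 340 with voom, 421 in the 4 samples and 101 to 361 with one sample left out, and those under -1 numbered 482, but 1159 with no filter and 253 with limma-trend. Without the filter the median log2 fold change of all genes was -0.17 in place of 0.02.

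No pairing by replicate number showed, with same-numbered samples deviating from their group means at r of -0.35, -0.05 and -0.35 across genes. With 3 samples per group these values cannot exclude a pairing. The replicate block left 1528 genes at that unadjusted p. In this fit the log2 fold change was -1.58 for Reln, -0.80 for Lrp8, -0.57 for Vldlr, 0.03 for Dab1 and 0.11 for Pafah1b1, with no call changed. The satellite glia markers as a reference were an alternative chosen after seeing the data, and leaving Apoe out of them moved no member's difference by over 0.01. Dab1 had the fewest reads of the members, 68 in sham replicate 2.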

Other observations

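A few marker genes followed the same libraries as Reln and were picked out after their values were seen. Sox10, a transcription factor of glia and Schwann cells, was at 59.9, 88.4 and 42.0 CPM after PRATA (replicates 1, 2 and 3) against 214, 109.4 and 267 CPM in the sham group, a difference of -1.63 on the log2 scale with a standard error of 0.38 (edgeR adjusted p = 0.156). Ntrk2, which encodes the receptor TrkB, was the exception among the sensory neuron markers, with a log2 fold change of -1.04 (adjusted p = 0.175, edgeR) and 565, 357 and 635 CPM in sham replicates 1, 2 and 3 against 205 to 346 CPM after PRATA. Pdpn, the podoplanin gene, was at 467, 276 and 631 CPM in sham replicates 1, 2 and 3 and at 143 to 235 CPM after PRATA. In all 3 genes sham replicate 2 was the sham sample nearest to the PRATA samples, as it was for Reln.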
